A study of Mus musculus with 5 samples.

Results

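Single T cells of the mouse brain were examined for 4 genes, namely Cd8a and Cd8b1, which encode the α and β chains of the CD8 coreceptor, and Ly6c1 and Ly6c2, which encode the surface antigen Ly6C. The 4 genes were chosen by name among 52542 gene rows, of which 15952 had a read molecule in the cells used. The cells came from 5 mice of the strain Grl1loxP/loxP, whose glucocorticoid receptor gene is flanked by loxP sites. TAT-CRE, a cell-permeable recombinase, was injected into the cerebral ventricles of mice 207 and 208 (18 weeks old) and 215 (19 weeks), and PBS into mice 216 (19 weeks) and 218 (16 weeks). All 5 mice were then exposed to electrical foot shock, so no unstressed mouse is among them, and brains without the choroid plexus were taken on day 14 after stress. Cells sorted as CD45+CD11b-TCRβ+ went 1 to a well. The deletion was aimed at the choroid plexus, which was not analysed here, so these T cell libraries do not check it.

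CD8 on conventional killer T cells is a dimer of an α and a β chain that binds MHC class I and brings the kinase Lck to the T cell receptor. CD8α can also pair with itself, on some intraepithelial and innate-like cells, and CD8β needs CD8α to reach the surface. Ly6C is a small protein anchored in the membrane by a lipid, best known on monocytes and endothelial cells, and also carried by memory and effector CD8 T cells. Klf2 is a transcription factor of naive and recirculating T cells, and Cxcr6 is a chemokine receptor of tissue-resident T cells.

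Of 1920 wells, those with 1 cell, at least 400 molecules (unique molecular identifiers, UMIs) of mouse genes and at most 30% mitochondrial UMIs were kept. This left 1482 cells, of which 311, 303 and 298 came from mice 207, 208 and 215 and 296 and 274 from mice 216 and 218. Each mouse was its own plate and amplification batch, so mouse and plate cannot be told apart. All wells of a mouse held 395090 to 857632 UMIs. The median per kept cell ran from 993 in TAT-CRE 208, the shallowest library, to 2660 in PBS 218, and ribosomal RNA genes took 28.3% of UMIs in TAT-CRE 208 against 43.9 to 48.0% in the other 4. The 384 cell barcodes recurred on the plates, but no combination of pool and cell barcode was found in more than 1 library. A T cell marker UMI (Cd3 chains, Trbc1, Trbc2 or Trac) was found in 1313 of the 1482 cells.

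Cd8b1 and Cd8a lie side by side on chromosome 6 in the mm10 build, Cd8b1 at positions 71322788 to 71337494 and Cd8a at 71373427 to 71379173, both on the plus strand and 35.9 kb apart. Ly6c1 and Ly6c2 lie on chromosome 15, on the minus strand, at 75044018 to 75048830 and 75108158 to 75111970, 59.3 kb apart. All 4 are annotated as protein coding. The Ly6c genes are near copies. Over the last 300 bases of their reference transcripts, 287 of 293 aligned bases (98.0%) were identical, and 45.0% of the 30-base stretches at that end of Ly6c2 also occurred in Ly6c1. None of the 30-base stretches of the same part of Cd8a occurred in Cd8b1. The method reads the 3′ end of transcripts, and how the authors assigned reads that fit both Ly6c genes is not given in the sources used here, so the division of UMIs between Ly6c1 and Ly6c2 is uncertain throughout.

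The stretches of 150 bases before the start sites of the Ly6c genes are shown because the transcripts, as described further on, were found in the same cells. They are taken from RefSeq (GRCm38.p6), which listed promoters for 3 of the 4 genes, leaving out Cd8b1. Both read 5′ to 3′ on the minus strand, Ly6c1 from chr15:75048838-75048987 and Ly6c2 from chr15:75111972-75112121, and capitals mark a run of 20 bases that is identical in both.
Ly6c1: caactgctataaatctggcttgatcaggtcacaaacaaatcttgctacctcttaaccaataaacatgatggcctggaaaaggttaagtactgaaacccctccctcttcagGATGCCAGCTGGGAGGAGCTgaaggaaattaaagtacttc
Ly6c2: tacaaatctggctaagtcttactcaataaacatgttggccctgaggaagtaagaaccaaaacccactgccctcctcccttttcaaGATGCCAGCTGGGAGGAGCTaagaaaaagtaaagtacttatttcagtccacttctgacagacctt

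Alignment paired 116 bases of these stretches, and 93 (80.2%) were identical. The hexamer TGTGGT, the core read by RUNX factors, was searched on both strands of the 300-base windows (250 before to 50 after each start). It was found in both windows listed for Ly6c2, in neither of those listed for Ly6c1 and not in that of Cd8a. It is common, occurring in 16.8% of all 32851 windows. Other motifs were searched too. The KLF motif CCNCNCCC (49.5% of all windows) was in both Ly6c1 windows and that of Cd8a, and in neither of Ly6c2. The ETS motif GGAAGT (23.8%) was in both Ly6c2 windows and 1 of Ly6c1. The T-box and TATA box motifs were each in 1 Ly6c1 window only, and the interferon-stimulated response element in none of these windows. A match is a description of the letters only.

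The level of each gene per mouse is given as CPM, its UMIs scaled to a total of 1e6 UMIs over the kept cells. Cd8a stood at 693, 516 and 437 CPM in mice 207, 208 and 215 after TAT-CRE and at 506 and 487 CPM in mice 216 and 218 after PBS. The group means were 549 ± 131 CPM (SD, n = 3) and 497 ± 13.4 CPM (SD, n = 2), and the PBS mice fell inside the TAT-CRE range. Cd8b1 stood at 488, 370 and 388 CPM after TAT-CRE and at 447 and 383 CPM after PBS. Both chains were highest in mouse 207.

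Ly6c1 was the scarcest of the 4, with 55, 18 and 35 UMIs after TAT-CRE and 13 and 101 UMIs after PBS. That gave 79.4, 49.7 and 59.5 CPM against 23.4 and 120 CPM, so the PBS mice held both the lowest and the highest level. Ly6c2 stood at 558, 439 and 510 CPM after TAT-CRE and at 573 and 632 CPM after PBS, means of 502 ± 59.8 (SD, n = 3) and 602 ± 41.4 CPM (SD, n = 2). Its groups did not overlap (two-sided exact permutation test over mice, p = 0.2), but the gap between the nearest mice, 207 and 216, was smaller than the spread inside either group. Such separation was not counted over all genes, so it is not shown to be particular to Ly6c2.

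**Figure D1:**
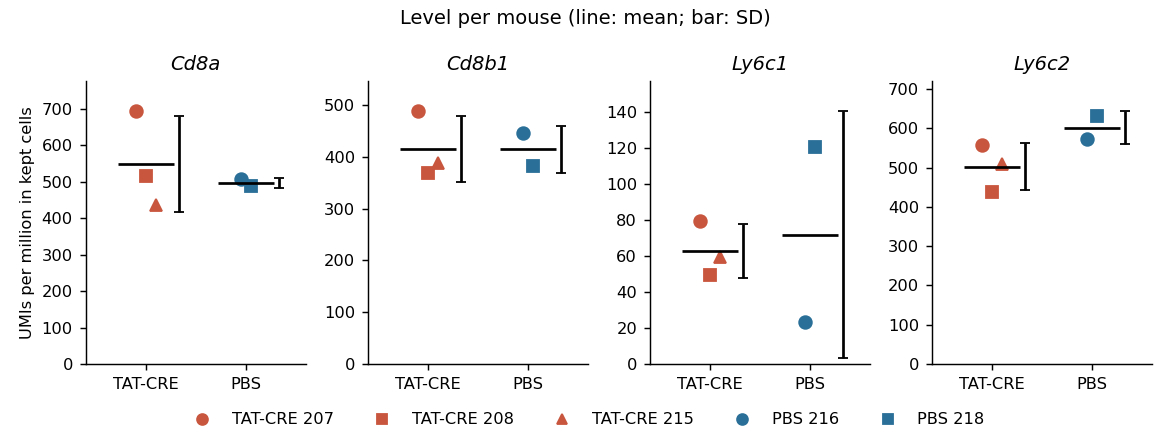
Level of each gene per mouse in CPM over kept cells, with the mean (line) and SD (bar) of 3 TAT-CRE and 2 PBS mice. The Ly6c1 points of the PBS mice, at 23.4 and 120, lie outside the 3 TAT-CRE points, and only Ly6c2 has groups that do not overlap.

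None of the 4 genes passed the test between TAT-CRE and PBS. The test was edgeR's quasi-likelihood test on counts summed per mouse with Benjamini-Hochberg adjustment over 6341 genes, and 0% of all genes passed it in either direction. The number with an unadjusted p under 0.05 was 239, and DESeq2 called 1 gene, Ifit3. The fitted log2 changes, TAT-CRE over PBS, were 0.08 ± 0.26 (SE) for Cd8a, -0.05 ± 0.26 for Cd8b1, -0.23 ± 0.56 for Ly6c1 and -0.31 ± 0.25 for Ly6c2, each with an edgeR adjusted p of 0.999. Without mouse 207 the Cd8a change became -0.20, and without mouse 218 that of Ly6c1 became 1.35. In these mice p-values measure the spread between animals and plates together.

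The share of cells with a UMI depends on depth, so shares compared between mice or cell sets are, where stated, also given after thinning every cell to 400 UMIs, as the exact expectation of that draw. A UMI of either Cd8 chain was found in 184, 78 and 127 cells after TAT-CRE (59.2, 25.7 and 42.6%) and in 137 and 129 cells after PBS (46.3 and 47.1%). Mouse 208, the shallowest library, held the lowest share and mouse 207 the highest. After thinning the shares were 23.4 ± 6.18% (SD, n = 3) and 24.2 ± 3.02% (SD, n = 2), a difference within the spread of the mice (two-sided exact permutation test over mice, p = 0.9, the smallest possible being 0.1).

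Ly6c2 UMIs were found in 23.9 ± 7.33% of cells after TAT-CRE and 33.3 ± 5.04% after PBS, groups that overlapped (exact permutation p = 0.3, n = 3 and 2). After thinning the shares were 12.1, 9.56 and 12.5% after TAT-CRE and 15.19 and 14.99% after PBS. The thinned groups did not overlap, and the exact permutation p of 0.1 was the smallest that 3 mice against 2 allow. This separation was not counted over all genes either, so it is not shown to be particular to Ly6c2. The thinned share of cells with a Cd4 UMI also separated the groups, at 3.56% after TAT-CRE and 2.37% after PBS (exact permutation p = 0.1). Within cells that had a Cd8 UMI, Ly6c2 did not separate the groups, at 653 ± 54.8 CPM after TAT-CRE and 654 ± 258 CPM after PBS (log2 change -0.04 ± 0.30, edgeR adjusted p = 1.000, where 0% of 4056 genes passed). There the PBS mice, at 472 and 837 CPM, lay on either side of the 3 TAT-CRE mice, at 593 to 701 CPM. These sums do not separate fewer transcripts per cell from fewer cells with transcripts. Over all kept cells, a cell with a Ly6c2 UMI held 3.79 ± 0.42 of them after TAT-CRE (SD, n = 3) and 4.43 ± 1.16 after PBS (SD, n = 2). Those groups overlapped (exact permutation p = 0.5), and the counts are not thinned.

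Most cells with CD8 transcripts showed 1 chain alone. Over all 1482 cells, 827 (55.8%) had no Cd8 UMI, 232 (15.7%) had Cd8a alone, 221 (14.9%) had Cd8b1 alone and 202 (13.6%) had both. After thinning the shares were 76.2% with neither, 11.3% with Cd8a alone, 9.61% with Cd8b1 alone and 2.83% with both. Unthinned, cells with both chains ranged from 5.28% in mouse 208 to 22.8% in mouse 207, and the other 3 mice held 11.8 to 16.1%. The cells with both were the deepest, with a median of 2565 UMIs against 1917.5 for Cd8a alone, 1745 for Cd8b1 alone and 1369 for neither.

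**Figure D2:**
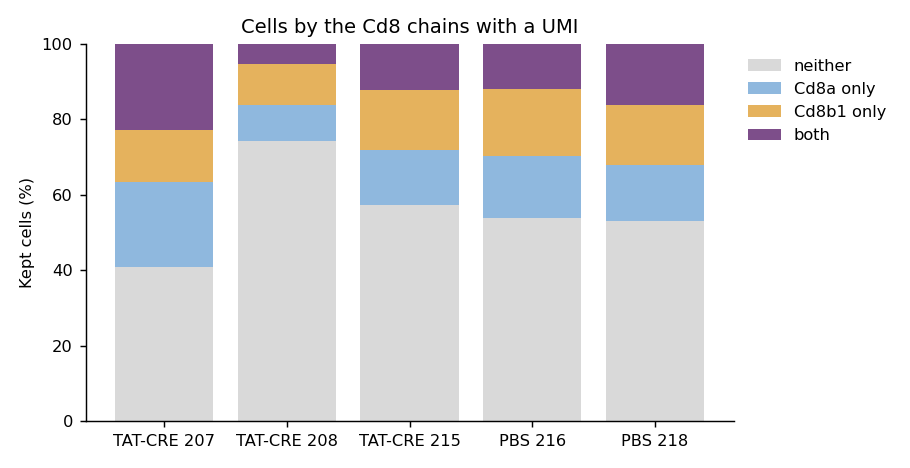
Share of kept cells in each mouse by the Cd8 chains with at least 1 UMI. Mouse 208, the shallowest library, has the smallest share with both chains (5.28%) and mouse 207 the largest (22.8%).

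Cd8b1 was found more often in cells with Cd8a than in cells without it, in each mouse. Thinned to 400 UMIs, Cd8b1 was expected in 22.0, 15.7 and 21.1% of Cd8a cells after TAT-CRE and in 21.1 and 17.7% of those after PBS. Among cells without Cd8a it was expected in 13.2, 8.12 and 10.7% and in 13.7 and 10.5%. The mean difference was 8.27 percentage points and had the same sign in 5 of 5 mice (exact sign-flip permutation, two-sided, p = 0.063, the smallest that 5 mice allow, and 0.25 after Benjamini-Hochberg adjustment over 4 such comparisons). Unthinned, the mean shares were 45.0% and 21.7%. The share with Cd8b1 climbed with the number of Cd8a UMIs, from 21.1% of cells at 0 and 38.2% at 1 to 58.4% (95% exact binomial interval 48.2 to 68.1%) at 6 or more. These last were 59 of 101 cells with a median depth of 2500 UMIs. In reverse, Cd8a was in 21.9% of cells at 0 Cd8b1 UMIs, 39.7% at 1, 53.3% at 2, 49.2% at 3 to 5 and 57.7% at 6 or more. Median depth was 1498 UMIs at 0 and 3140.5 at 6 or more Cd8b1 UMIs, and 1467 UMIs at 0 Cd8a UMIs. The shares by number of UMIs are unthinned and pooled over mice, so the part of depth in their rise was not tested.

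**Figure D3:**
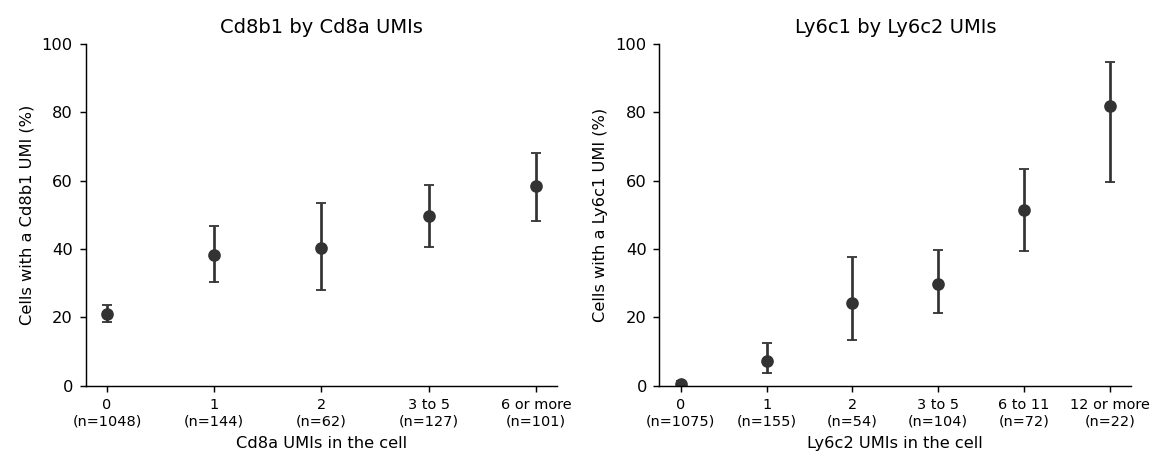
Share of cells with a Cd8b1 UMI by the number of Cd8a UMIs in the cell (left), and with a Ly6c1 UMI by the number of Ly6c2 UMIs (right), over all 5 mice, with 95% exact binomial intervals for counting error only. Cd8b1 starts at 21.1% where Cd8a is absent, and Ly6c1 at 0.558% where Ly6c2 is absent.

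No gene passed the test between cells with Cd8a alone and cells with both chains. Of 965 genes, 0% passed edgeR's test with the mouse as a block, 24 had an unadjusted p under 0.05, and DESeq2 called 1, Malat1. Ly6c2 was at 643 ± 326 CPM with Cd8a alone and at 776 ± 270 CPM with both (n = 5 mice each). It was higher with both chains in 3 mice and lower in the other two (log2 change -0.34 ± 0.40, edgeR adjusted p = 0.998). Klf2 was lower with Cd8a alone in all 5 mice, at 112 ± 66.6 against 231 ± 145 CPM, and did not pass the test (log2 change -0.86 ± 0.43, edgeR adjusted p = 0.998).

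Cd4 is the coreceptor of helper T cells, and the share of Cd4 cells with a Cd8 UMI was counted. Cells with both were not assigned a lineage, so this is not a rate of Cd8 in helper cells. Of 110 cells with a Cd4 UMI, 25 (22.7%, 95% exact interval 15.3 to 31.7%) also had a Cd8 UMI, against 630 of 1372 (45.9%) without Cd4, at median depths of 2032 and 1616 UMIs. By mouse (207, 208, 215, 216 and 218), 10 of 32, 2 of 21, 2 of 25, 3 of 16 and 8 of 16 Cd4 cells had Cd8, against 174 of 279, 76 of 282, 125 of 273, 134 of 280 and 121 of 258 cells without Cd4. The share was thus lower with Cd4 in 4 mice and slightly higher in mouse 218, and most of the 25 cells came from mice 207 and 218. After thinning these shares were 7.99% and 25.02%. In the 20 wells that received no cell, which held 17 to 160 UMIs each, Cd8a was found in 1, Cd8b1 in 2, Ly6c2 in 1 and Ly6c1 in 0, which allows a share of up to 15% of wells. Free RNA of either gene in the wells, sorted pairs of cells and cells with both coreceptors were not tested as sources of the cells with both UMIs. Ly6c2 was also rarer in Cd4 cells, in 17.3% against 28.3% unthinned and 5.27% against 13.4% thinned.

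Few transcripts other than the chains themselves marked the cells with a Cd8 UMI. In the comparison with cells of the same mouse that had none, 2 of 3167 genes (0.0632%) passed edgeR's test, both higher, and 162 had an unadjusted p under 0.05. Ccl5, a chemokine of effector and memory T cells, was at 4268, 2776 and 3065 CPM in Cd8 cells after TAT-CRE and at 3553 and 2038 CPM in those after PBS. In cells without Cd8 it was at 2082, 1880 and 1301 and at 2593 and 1246 CPM. It was higher with Cd8 in 5 of 5 mice (log2 change 0.82 ± 0.10, edgeR adjusted p = 0.00327), although the ranges of the sets overlapped between mice. Nkg7, a protein of cytotoxic granules, rose from 349 ± 45.9 to 662 ± 80.9 CPM (SD, n = 5 each; log2 change 0.94 ± 0.12, edgeR adjusted p = 0.00327). Its lowest value with Cd8, 538 CPM, was above its highest without, 398 CPM.

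Both calls were lost when both chains were required, or when the cells were thinned to 400 UMIs before the sets were formed, with log2 changes of 0.63 and 0.62 (edgeR adjusted p = 0.655 and 0.0673) for Ccl5 and of 0.81 and 0.46 (0.323 and 0.644) for Nkg7. The Nkg7 call was also lost without mouse 215 (log2 change 0.88, edgeR adjusted p = 0.0545) or mouse 216 (0.87, adjusted p = 0.0515). DESeq2 called a further gene, Maf, a factor of helper T cells, which was lower with Cd8 in all 5 mice (log2 change -2.81, edgeR adjusted p = 0.054).

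Among the genes of killer T cells, 19 of 25 listed were tested and 18 were higher in cells with Cd8, with a median log2 change of 0.71 against -0.005 over all 3167 genes. Besides Ccl5 and Nkg7 none passed. Among those that did not pass were Eomes, a transcription factor of memory killer cells (log2 change 1.42), Ctsw, a granule cathepsin (1.19), and the perforin gene Prf1 (1.06). Eomes and Ctsw were higher in 5 of 5 mice and Prf1 in 4. Runx3, which turns off Cd4 in the CD8 lineage, had a log2 change of 0.45 and was higher in 3 mice. Of the 9 tested helper cell genes all were lower with Cd8 (median -0.88), and 0 passed. Cd4 was at 54.5 ± 46.4 CPM with Cd8 and 183 ± 111 CPM without (log2 change -1.88 ± 0.54, edgeR adjusted p = 0.634), lower with Cd8 in 4 mice. Both lists were drawn up with knowledge of earlier results of these data, so their direction is not independent evidence.

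No gene passed among the molecules CD8 works with. Of 19 genes for the T cell receptor complex, its signalling partners and MHC class I, 13 were higher with Cd8 and 6 lower, with 0 passing and a median log2 change of 0.07. Lck, the kinase bound by CD8, had a log2 change of -0.04 and Cd3e, a receptor subunit, 0.07. Of 14 interferon response genes 13 were higher with Cd8 (median 0.45) and 0 passed. Ifit3, an interferon-induced antiviral gene, had the highest value at 1.08.

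**Figure D4:**
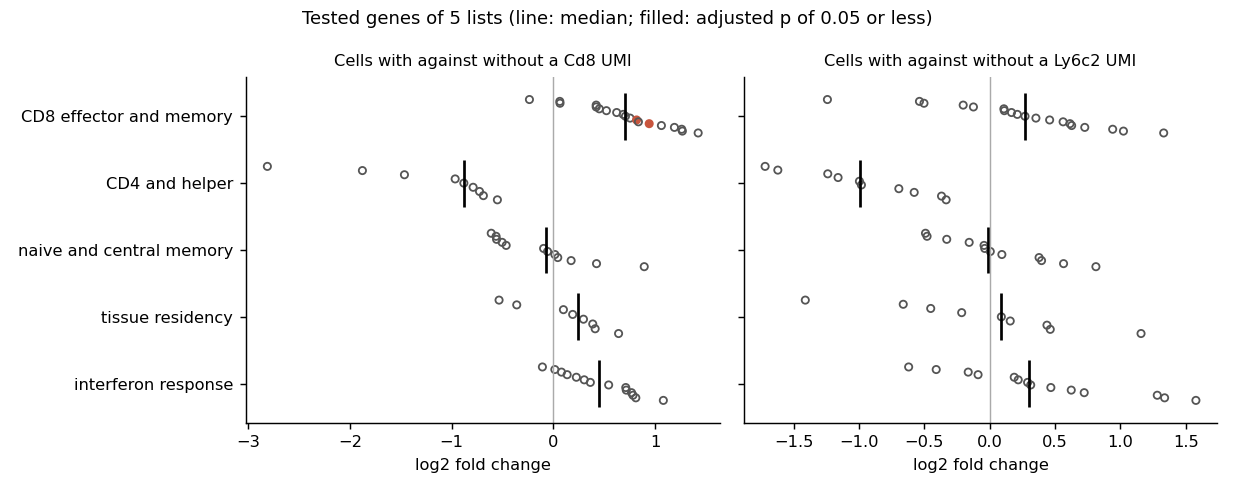
Fitted log2 fold change of the tested genes of 5 lists in cells with against without a Cd8 UMI (left) and with against without a Ly6c2 UMI (right), 1 point per gene, with the list median as a line. Only Ccl5 and Nkg7, filled on the left, passed the test; the helper cell genes lie below 0 in both panels.

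Ly6c2 was higher in cells with Cd8 in 4 of 5 mice, but the difference did not pass the test. Cells with a Cd8 UMI held Ly6c2 at 666, 593 and 701 CPM after TAT-CRE and at 472 and 837 CPM after PBS (mice 216 and 218). Cells without held it at 341, 376 and 342 CPM and at 695 and 414 CPM. In 4 mice the level was higher with Cd8, and in mouse 216 it was lower. The log2 change was 0.64 ± 0.20 and did not pass (edgeR adjusted p = 0.654), while without mouse 216 it was 0.93 with an adjusted p of 0.0332. With cells thinned before the sets were formed it was 0.31 (edgeR adjusted p = 0.819). The thinned share of cells with Ly6c2 was 15.1 ± 3.57% with Cd8 and 12.1 ± 2.76% without, higher in 4 of 5 mice (exact sign-flip p = 0.1875, adjusted 0.375). Unthinned it was 34.8% and 21.8%, higher in 5 of 5 (exact p = 0.063), at median depths of 2057 and 1369 UMIs. With both chains required in the Cd8 set, the difference in thinned share was 1.79 points (exact sign-flip p = 0.6875). The log2 change was then 0.78 (edgeR adjusted p = 0.655). In mouse 207, 1 cell held 58 of the 307 Ly6c2 UMIs of the cells with Cd8.

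Some markers of other lymphocytes were highest in mouse 216, although the TCRβ+ gate of the sort is set to leave out NK and γδ T cells. Its NK cell markers summed to 106 CPM against 5.78 to 42.9 CPM in the other mice, and its γδ T cell markers to 216 CPM against 60.7 to 133 CPM, while its B cell markers were the lowest, at 70.3 CPM against 94.1 to 163 CPM. Of its 159 cells without Cd8, 22 (13.8%) had a UMI of an NK or γδ marker and held Ly6c2 at 1026 CPM, and the remaining cells held it at 627 CPM. Mouse 218 had a larger share of such cells, 22 of 145 (15.2%), which held Ly6c2 at 805 CPM against 339 CPM in the rest. In mouse 207, 5 such cells of 127 held 1397 CPM, and the rest 283 CPM. Mice 208 and 215 went the other way. In mouse 208, 5 such cells of 225 held 0 CPM, and the rest 384 CPM. In mouse 215, 12 such cells of 171 held 139 CPM, and the rest 357 CPM. With all such cells left out in all mice, the log2 change between cells with and without Cd8 was 0.83 (edgeR adjusted p = 0.232). The part of NK or γδ cells in the difference of mouse 216 from the other mice was not tested.

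With Klf2, the Ly6c2 levels of the mice showed no difference that passed. Ly6c2 was at 592, 202 and 561 CPM in Klf2 cells after TAT-CRE and at 779 and 748 CPM in those after PBS, against 550, 464, 503, 533 and 588 CPM in cells without Klf2. Mouse 208, where the 26 Klf2 cells held 7 Ly6c2 UMIs, was the only one with less in Klf2 cells. The means were 576 ± 230 and 528 ± 47.1 CPM (SD, n = 5; log2 change 0.04 ± 0.21, edgeR adjusted p = 0.987, where 0% of 2860 genes passed, 148 had an unadjusted p under 0.05 and DESeq2 called 6). The sign of this change turned in 6 of 14 alternatives, down to -0.65 with a mitochondrial limit of 20%, and it was 0.73 with cells thinned before the sets were formed. The thinned shares were 13.0 ± 3.76% and 12.9 ± 2.40% (exact sign-flip p = 1, adjusted 1, higher in 3 of 5 mice).

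With Cxcr6, Ly6c2 was at 785, 668, 559, 436 and 751 CPM in the order of mice 207, 208, 215, 216 and 218, and without Cxcr6 at 387, 373, 492, 643 and 545 CPM. Again 4 mice were higher and mouse 216 lower. The log2 change of 0.33 ± 0.19 did not pass (edgeR adjusted p = 0.907, where 0% of 3467 genes passed, 206 had an unadjusted p under 0.05 and DESeq2 called 4), and it was -0.61 when cells were thinned before the sets were formed. The thinned shares were 13.9 ± 3.98% and 12.7 ± 2.60% (exact sign-flip p = 0.5625, adjusted 0.75, higher in 3 of 5 mice).

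Among the cells with a Cd8 UMI, 65 had Klf2 and no Cxcr6 and 198 had Cxcr6 and no Klf2. Ly6c2 was at 1039, 387, 675, 1119 and 1206 CPM in the first set (mice 207, 208, 215, 216 and 218) and at 980, 1158, 620, 181 and 977 CPM in the second. The ranges of the sets overlapped, with mice 208 and 216 far apart in opposite directions (log2 change 0.25 ± 0.41, edgeR adjusted p = 0.896). The log2 change in TAT-CRE mice minus that in PBS mice was -1.69 ± 0.72, with an unadjusted p of 0.0379 and an edgeR adjusted p of 0.999. The smallest group here was 8 cells. In the same fit 38 of 445 genes had an unadjusted p under 0.05. Id2, a regulator of effector and resident T cells, was the only call (0.225%). It was lower in the Klf2 cells of all 5 mice, at 633 ± 152 against 1306 ± 317 CPM (log2 change -1.15 ± 0.20, edgeR adjusted p = 0.0474), and kept its call in 2 of 14 alternatives.

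**Figure D5:**
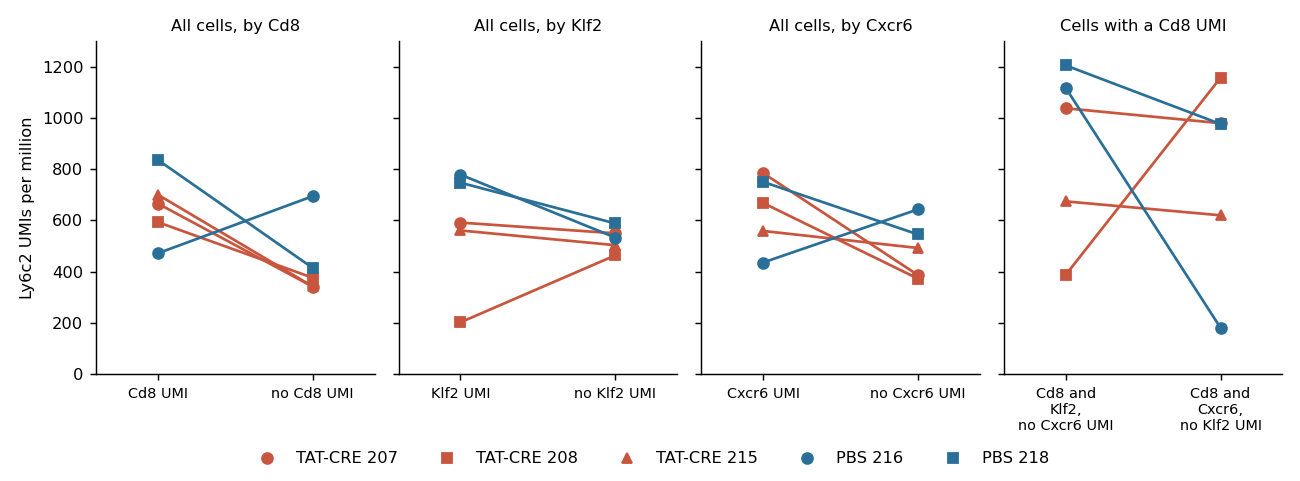
Ly6c2 level in CPM in 2 cell sets of each mouse, joined by a line, for cells with and without a Cd8, Klf2 or Cxcr6 UMI and for Cd8 cells with Klf2 or with Cxcr6. Mouse 216 runs against the other 4 for Cd8 and Cxcr6, and mouse 208 for Klf2.

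Taking the 3 genes together, Ly6c2 was seen in 61.3% of the 31 cells with Cd8, Klf2 and Cxcr6, 43.1% of the 65 with Cd8 and Klf2, 36.4% of the 198 with Cd8 and Cxcr6 and 31.9% of the 361 with Cd8 alone. Among cells without Cd8 the shares were 27.8% of 18, 21.6% of 74, 24.2% of 186 and 19.5% of 549, in the same order. Median depth fell along the same order among Cd8 cells, from 2850 to 1760 UMIs. After thinning, the Cd8 sets held 17.1, 19.0, 15.9 and 13.5% and the sets without Cd8 held 12.9, 9.12, 12.7 and 10.8%. In CPM the order was another, at 556, 990, 808 and 518 in the Cd8 sets and 816, 309, 492 and 401 in the sets without. All these values pool cells over mice, and each set with both Klf2 and Cxcr6 had cells in only 4 of the 5 mice. The 816 CPM came from 46 Ly6c2 UMIs in 5 of 18 cells. Taken per mouse, that set held 337 ± 623 CPM (SD, n = 4), from 0 to 1269 CPM.

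Ly6c1 was found almost only where Ly6c2 was. Of 116 cells with a Ly6c1 UMI, 110 (94.8%) also had Ly6c2, with 100, 93.3 and 95% after TAT-CRE and 88.9 and 93.5% after PBS. Ly6c1 was seen in 27.0% of the 407 Ly6c2 cells and in 0.558% of the other 1075. It was seen in 7.10% of cells with 1 Ly6c2 UMI, 24.1% with 2, 29.8% with 3 to 5, 51.4% with 6 to 11 and 81.8% (18 of 22) with 12 or more. These last 22 cells were also the deepest, with a median of 4994.5 UMIs. These shares are unthinned, at median depths of 2249 UMIs in cells with Ly6c2 and 1453 in cells without. In Ly6c2 cells Ly6c1 stood at 220, 250, 128, 55.4 and 234 CPM (mice 207, 208, 215, 216 and 218), and in the others at 0, 3.395, 25.4, 2.95 and 37.2 CPM. No cell of mouse 207 had Ly6c1 without Ly6c2 (0 of 217 cells, which allows a share of up to 1.38%).

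In the test across 3405 genes Ly6c1 was higher with Ly6c2 in 5 of 5 mice (log2 change 3.81 ± 0.63) but missed the threshold (edgeR adjusted p = 0.0889), as did all other genes (0% called, 164 with an unadjusted p under 0.05). DESeq2 called Ly6c1 (log2 change 4.10, adjusted p = 5.71e-07) and Tnfaip3. Over the alternatives the change of Ly6c1 ran from 3.29 to 4.53 and its adjusted p from 9.00e-10, with no filter on low counts, to 0.483, with a mouse left out. The division of reads between near copies, whose transcript ends share 45.0% of their 30-base stretches, was not tested as the origin of this pattern. The number of Ly6c1 UMIs per 100 Ly6c2 UMIs was not the same in all mice, at 14.2, 11.3 and 11.7 after TAT-CRE and 4.09 and 19.1 after PBS.

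The pattern was broken by 6 cells, with 1, 4, 6, 8, 1 and 10 Ly6c1 UMIs and 0 of Ly6c2. All 6 had T cell marker UMIs, and 0 of 6 had a Cd8 UMI, which allows a share of up to 50%. Brain endothelial cells are a known source of Ly6c1 and monocytes of Ly6c2, and the CD45+CD11b-TCRβ+ sort is set to leave out both. The listed endothelial markers Cldn5, Flt1, Cdh5, Slco1a4, Egfl7, Esam, Tie1 and Kdr had 0 UMIs in all kept cells, which allows up to 0.988 CPM each. The 2 others listed besides Ly6c1 were found, Pecam1 with 177 UMIs in 115 cells and Slc2a1 with 59 UMIs in 16 cells. These 2 summed to 22.1 to 172 CPM after TAT-CRE and 48.6 to 58.4 CPM after PBS, and 6 of their UMIs lay in 1 of the 6 cells. The monocyte markers Lyz2, Csf1r, Cd14, Ms4a7, Adgre1 and Mrc1 had 0 UMIs in kept cells. The 4 others, which include Ccr2, a receptor that T cells carry as well, summed to 119 to 145 CPM after TAT-CRE and 88.3 to 132 CPM after PBS. The part of either cell type in the Ly6c counts was not otherwise tested.

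Beyond Ly6c1, the killer and helper cell lists leaned the same way with Ly6c2 as with Cd8, while single genes differed. Cd8a was at 617 ± 183 CPM in Ly6c2 cells and 487 ± 88.0 CPM in the others (log2 change 0.30 ± 0.16, edgeR adjusted p = 0.99), and Cd8b1 at 467 ± 78.1 and 387 ± 62.5 CPM (0.27 ± 0.15, adjusted p = 0.99). Both were higher in 4 mice and lower in mouse 216. Of 19 killer cell genes 14 were higher with Ly6c2 (median 0.27), of 10 helper cell genes 0 (median -0.99), and of 14 interferon response genes 10 (median 0.30), against -0.04 over all genes, with 0 passing. Klrk1, the activating receptor NKG2D, was higher in 5 of 5 mice (log2 change 1.33, adjusted p = 0.848). Among the killer cell genes that were lower with Ly6c2 were Eomes, Gzmk and Ccl4 (log2 change -0.50, -0.54 and -1.24). With Cd8 the same genes were higher (1.42, 0.42 and 1.26). The neighbouring family members Ly6a, known as Sca-1, and Ly6e had log2 changes of -0.15 and 0.13.

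For Ly6c1 no difference with Cd8 passed. It was at 97.6, 76.6, 47.2, 9.90 and 104 CPM in cells with Cd8 and at 43.2, 38.8, 70.3, 39.7 and 137 CPM in cells without, higher with Cd8 in mice 207 and 208 only (log2 change -0.07 ± 0.46, edgeR adjusted p = 0.998). Of the 15 listed Ly6 genes, 7 had a UMI and 4 were tested, namely Ly6c1, Ly6c2, Ly6a and Ly6e. Ly6a was lower in Cd8 cells in all 5 mice without passing (log2 change -0.70, edgeR adjusted p = 0.634). It was at 302 ± 76.7 CPM after TAT-CRE and 172 ± 36.7 CPM after PBS (log2 change 0.70 ± 0.26, edgeR adjusted p = 0.999). These groups did not overlap (two-sided exact permutation test over mice, p = 0.2), a separation that was not counted over all genes. No difference in these within-mouse changes between TAT-CRE and PBS mice passed for any of the 4 genes, in 15 tests with edgeR adjusted p from 0.995 upwards.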

How the data were processed

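Each deposited table gives UMI counts, not normalized, with genes in rows and wells in columns. Per the labels' protocols, sorted cells were processed by a plate method with barcoded wells and amplification by in vitro transcription. The submitters' processing notes name mm10 as the build and bcl2fastq 2.15.0.4 as a tool; the aligner is not given in the sources used here. Wells with 1 cell, 400 or more UMIs outside the 92 spike-in rows and 30% or less mitochondrial UMIs were kept. No doublet caller was run. UMI intervals and limits cover counting error only (95% level; a count of 0 allows 3).

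Counts were summed per mouse, or per mouse and cell set with the mouse as a block, since both sets come from the same mice. They were tested with edgeR 4.0.16 (quasi-likelihood, TMM, filterByExpr; adjusted p of 0.05 or less), and genes that define a set were not tested. DESeq2 1.42.0, other filters and leaving out each mouse were alternatives (closing section). Shares were thinned to 400 UMIs by exact expectation. Scripts were tested on simulated data. Genes were named if they were among the 4 members, if they passed with a UMI in 5% of cells and 1 direction in all mice (10 each way), or if they were among the 4 most abundant of a list; others were named after their values were seen. The members and lists were chosen with earlier results of these data known.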

Additional observations from a re-analysis of the deposited data

How the results depend on the processing

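Of 291 alternatives over 23 results, 226 were counted as the same. They kept direction and side of the threshold or, for numbers of genes called, changed by a ratio of at most 1.5. For TAT-CRE against PBS, log2 changes that turned sign were, with a mitochondrial limit of 20%, Cd8b1 (0.035) and Ly6c2 within Cd8 cells (0.054); with both chains needed or at least 800 UMIs, the latter was 0.11 and 0.0079. With a mouse left out, Cd8a ran from -0.20 to 0.25, Cd8b1 from -0.24 to 0.15, Ly6c1 from -0.93 to 1.35, and within Cd8 cells Ly6c1 from -0.52 to 2.74 and Ly6c2 from -0.38 to 0.38. The thinned share of Cd8 cells (main difference -0.82 points) became 0.21 with both chains needed and 0.34 with the 20% limit, and ran from -4.05 to 2.11 with a mouse left out. No paired analysis was possible because TAT-CRE and PBS mice share no replicate number.

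Within mice, Ly6c2 by Cd8 ran from 0.53 to 0.93 with a mouse left out and was 0.31 with cells thinned first. By Klf2 it was -0.32 with no filter on low counts, -0.0041 with at least 800 UMIs, -0.65 with the 20% limit, 0.73 with cells thinned first, and -0.10 to 0.21 with a mouse left out. The share by Klf2 was -0.067, -6.65 and -0.61 points with at least 800 UMIs, the 20% limit and no mitochondrial limit, and -0.91 to 1.37 with a mouse left out. By Cxcr6, Ly6c2 was -0.61 with cells thinned first. For Klf2 against Cxcr6 among Cd8 cells it was -0.41 with the 20% limit, -0.063 with no filter and -0.24 to 0.54 with a mouse left out. Genes called with Cd8 numbered 0 with both chains needed or cells thinned first, 7 with no filter, 1 with no replicate block and 1 to 2 with a mouse left out; without the replicate block Ly6c2 by Cd8 was 0.62 (adjusted p = 1.000) and the Ccl5 call was lost (log2 change 0.83, adjusted p = 0.820). Genes called with Ly6c2 numbered 2 by DESeq2, 9 with no filter and 1 with no mitochondrial limit; DESeq2 called 1 for Cd8a alone against both chains. Thinning first and leaving out cells with NK or γδ markers were chosen after seeing the data. The cause was not tested.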
